A study of Mus musculus with 20 samples.

Results

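Abat encodes GABA transaminase, and its RNA was followed here in the left ventricle of mice fed 4 diets. The gene is 1 row of the 15956 genes counted, found by its symbol, and it was chosen from earlier results of these same data for its pattern over the diets. Its levels and fold changes are therefore given as a description with their errors and without a test. Libraries came from 20 male mice, 5 on each diet, and the comparisons made here all draw on these mice, so that contrasts with a group in common share its samples. The groups were a normal protein diet (NP), a low protein diet (LP), a high-fat diet with normal protein (HF), and a high-fat diet with low protein (HF + LP). No gene was altered and no drug was given in any group, and the strain is not given in the sources used here. By their labels the mice were 18 months old, whereas the methods of the study place tissue collection at a younger age. Body weight differed between the diets, at 43.0 ± 7.82 g (SD, n = 5) in NP and 32.6 ± 2.69 g in LP. It was 58.9 ± 1.77 g in HF, whereas HF + LP mice weighed 48.6 ± 5.93 g.

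GABA transaminase is an enzyme of the mitochondrial matrix that uses pyridoxal phosphate, the active form of vitamin B6. It moves the amino group of γ-aminobutyric acid (GABA) to 2-oxoglutarate, which yields succinate semialdehyde and glutamate, and succinate semialdehyde is then oxidized to succinate and enters the citric acid cycle. This bypass of the cycle is called the GABA shunt. The enzyme also accepts β-alanine, a product of pyrimidine breakdown, and an aminoisobutyrate related to valine and thymine breakdown. It has further been tied to the salvage of nucleotides inside mitochondria, together with succinyl-CoA ligase and nucleoside diphosphate kinase. It is best known from the brain, where it ends the action of GABA, and from the liver.

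Abat (ENSMUSG00000057880) lies on the forward strand of chromosome 16, at chr16:8513429-8621568 on GRCm38, and GENCODE M21 lists 7 transcripts for it, of which 5 are coding. The longest coding transcript, Abat-201, has 16 exons and 1500 coding bases for 500 residues. Its last exon, which holds the long 3′ UTR, runs from 8618505 to 8621568. The QuantSeq libraries prime on the poly(A) tail, so reads of a gene come from the 3′ end of its transcripts and do not grow in number with transcript length. Transcripts of Abat that end elsewhere, such as Abat-202 at 8603047, could not be told apart in a count per gene. No other listed gene overlapped Abat. The closest on either side were Mettl22, which ends 22745 bases before it, and Tmem186, which lies on the opposite strand and begins 11661 bases after it.

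Total counts per library lay between 12559607 and 23331907. All 8 cardiomyocyte markers were present, with summed CPM (counts scaled to library size) of 27060 to 39090 over the 20 libraries. The library of LP mouse 13 stood apart, with a median correlation to the other libraries of its diet of 0.908 against 0.944 to 0.979 for the rest. Atrial myocyte markers were uneven in these ventricular samples, with summed CPM from 50.1 to 16750. Same-group mice are labelled as separate animals, although the label of LP mouse 5 adds that it is a sample 2, which the sources used here do not explain. It was taken as 1 animal, so p-values below measure the spread between mice.

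In NP hearts, the normalized count of Abat, which is the count scaled to a common library size, was 149 in mouse 4, 169 in mouse 3, 156 in mouse 6, 184 in mouse 5, and 124 in mouse 8. In LP hearts it was 125 in mouse 2, 145 in mouse 13, 111 in mouse 20, 129 in mouse 15, and 135 in mouse 5. The NP and LP ranges overlapped, with 1 LP mouse below every NP mouse. In HF hearts it was 156 in mouse 1, 108 in mouse 2, 97.8 in mouse 3, 97.7 in mouse 4, and 146 in mouse 5. The HF values fell into a lower 3 and a higher 2, and the higher 2 were within the NP range. In HF + LP hearts it was 65.6 in mouse 1, 59.8 in mouse 2, 72.3 in mouse 3, 25.8 in mouse 4, and 24.8 in mouse 5. All 5 HF + LP mice were below all 15 mice of the other diets, and mice 4 and 5 were well below the other 3.

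**Figure D1:**
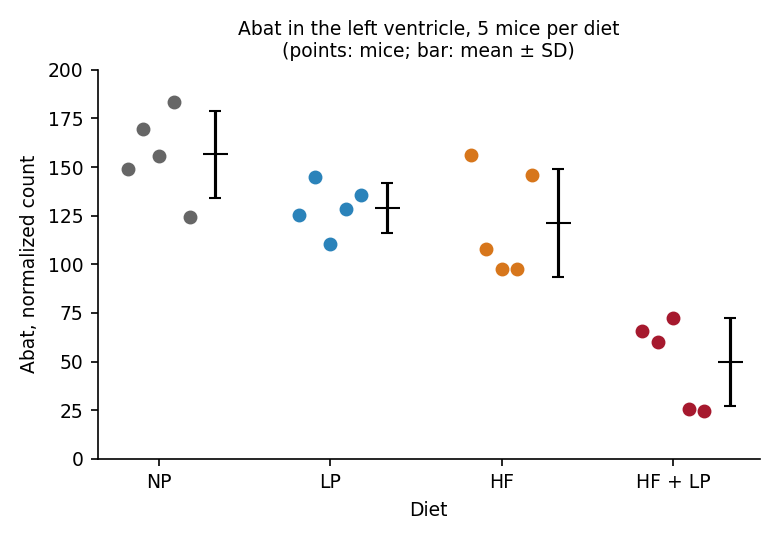
Normalized count of Abat (y axis, linear, from 0) by diet (x axis); each point is 1 mouse and the bar beside each group is the mean ± SD of 5 mice. The highest HF + LP mouse, at 72.3, lies below the lowest mouse of the other diets, at 97.7.

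The mean normalized count was 157 ± 22.3 in NP (SD, n = 5), 129 ± 12.7 in LP, and 121 ± 27.9 in HF, against 49.6 ± 22.7 with the combined diet. In CPM the same means were 9.21, 7.59, 7.13, and 2.92, so Abat was a gene of low abundance in these hearts on every diet. The order of the levels was NP, LP, HF, and HF + LP, in which NP and LP overlapped, LP and HF overlapped, and only the step to HF + LP was free of overlap. The HF + LP mean was 41.0% of the HF mean (2.44-fold lower), 38.5% of the LP mean (2.60-fold lower), and 31.7% of the NP mean. In bulk tissue, fewer cells that express Abat and less Abat RNA per cell cannot be told apart.

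The fitted log2 fold change of Abat was −1.28 (SE 0.24) for HF + LP compared to HF and −1.37 (SE 0.24) for HF + LP compared to LP. It was −0.28 (SE 0.23) for LP compared to NP and −0.37 (SE 0.23) for HF compared to NP. The values for HF + LP compared to HF or LP were thus further from 0 than those for LP or HF compared to NP. The interaction term, which is the protein effect on the high-fat diets minus the protein effect on the other diets, was −1.0 (SE 0.34). Averaged over fat content, low protein had a log2 fold change of −0.78 (SE 0.17), and averaged over protein content, high fat had one of −0.87 (SE 0.17). Both averages include the step to HF + LP.

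The values for Abat were set against the 10158 genes with a mean normalized count (base mean) over 50, whose median log2 fold change was no further than 0.02 from 0 in every comparison. In HF + LP compared to HF, 33 genes had a lower log2 fold change than Abat, and in HF + LP compared to LP, 72 did. In HF compared to NP, 708 genes were lower, and in LP compared to NP, 503 were, so in these comparisons with NP Abat was one of many. Every HF + LP mouse was below every HF mouse for 89 of the 13991 genes tested (0.636%), and below every LP mouse for 133 (0.951%). Every HF + LP mouse was below all 15 others for 2 genes (0.0143%), Abat and Pdcd5-ps, a processed pseudogene with a base mean of 9.10. The reverse pattern, every HF + LP mouse above all 15 others, was seen for 6 genes, named here after their values were seen. Among them were Tomm7, a subunit of the mitochondrial outer membrane import complex, Uqcc2, an assembly factor of respiratory complex III, and Sord, sorbitol dehydrogenase, with means 1.13, 1.27, and 1.32 times the mean of the other mice. The remaining 3 were Cops6 and Polr2l, with ratios of 1.23 and 1.31, and Acot3, a peroxisomal acyl-CoA thioesterase with a base mean of 14.5, with the largest ratio of the 6 (2.24).

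The depth behind the low values was modest. Raw counts of Abat ranged over 110 to 181 (NP), 94 to 230 (LP), and 82 to 190 (HF), and were 63, 56, 76, 23, and 24 in HF + LP mice 1 to 5. The exact 95% Poisson interval, which covers counting error only, was 14.6 to 34.5 for the count of 23 and 15.4 to 35.7 for the count of 24. On the normalized scale these intervals end at 38.7 and 36.8, below the other 3 HF + LP mice. The coefficient of variation between mice was 45.7% in HF + LP, where counting alone would give 14.4%. It was 14.2%, 9.85%, and 23.0% in NP, LP, and HF, where counting alone would give 8.48%, 8.76%, and 9.23%.

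Each library name holds a number, 1, 2, or 3, which the sources used here do not explain, and the step to HF + LP was present at each number. At number 1, Abat was 149 in the NP mouse, 135 as the mean of 2 LP mice, 156 in the HF mouse, and 65.6 in the HF + LP mouse. At number 2, it was 163 (2 mice), 111, 108, and 59.8. At number 3, it was 154 (2 mice), 132 (2 mice), 114 (3 mice, 97.7 to 146), and 40.9 (3 mice, 24.8 to 72.3). Both of the lowest HF + LP mice carried number 3, as did HF + LP mouse 3, which had the highest Abat of its group.

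Weight also varied within the diets. The 5 HF + LP mice weighed 48.3, 44.8, 41.2, 56.1, and 52.5 g in the order 1 to 5, so the 2 heaviest were the 2 with the least Abat. Over all 20 mice, after removal of the diet means, Pearson's r between weight and log2 CPM of Abat was −0.34 and Spearman's rho was −0.25. Without the 2 mice farthest from the median weight deviation, r was −0.43. Mean weight fell in the order HF, HF + LP, NP, and LP, and mean Abat in the order NP, LP, HF, and HF + LP. The same r was 0.13 for the share of counts from mitochondrially encoded genes and 0.03 for the library total. The mitochondrial share was similar in NP (43.2% ± 2.48) and HF + LP (43.3% ± 3.37), and was 40.3% ± 3.94 in LP and 38.7% ± 0.75 in HF. The part of weight or of the mitochondrial share in the Abat values was not tested.

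**Figure D2:**
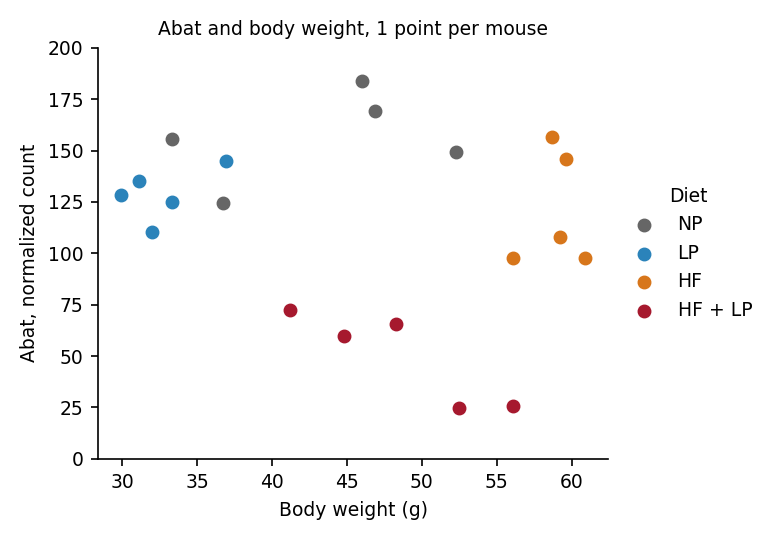
Normalized count of Abat (y axis, from 0) against body weight in g (x axis), 1 point per mouse, coloured by diet. HF + LP mice, at 41.2 to 56.1 g, lie below NP mice of overlapping weight and below all HF mice, which weighed 56.1 to 60.9 g.

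The genes that act next to GABA transaminase were examined as fixed lists, chosen with earlier results of these data known. A gene was called where its base mean was over 50 and its adjusted p, from edgeR's quasi-likelihood test of all 13991 genes, was under 0.01. Of 113 genes on 6 lists, 85 were listed in the counts, 80 were tested, and 69 had a base mean over 50. None was called in HF + LP compared to HF, where edgeR called no gene at all (0%, with 677 genes at an unadjusted p under 0.05 and 13 called by DESeq2). None was called in LP compared to NP (0% of all genes, 1014 at an unadjusted p under 0.05, 4 by DESeq2), in the average protein effect (0%, 767, and 1), or in the interaction (0%, 1003, and 1). edgeR called none of the 80 in HF compared to NP, where it called 37 genes in all (0.264%), or in HF + LP compared to LP, where it called 14 (0.1%). DESeq2 called 159 and 84 genes in these comparisons, with Ogdh and Cmpk2 of the lists in the former. In the average fat effect, 140 genes were called (1%), of which 1 of the 80 was Csad, and DESeq2 called 398, with Csad, Ogdh, Cmpk2, and Bcat2 of the lists.

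In the GABA shunt list, 12 of 14 genes were listed and 11 were tested. Gad1 and Gad2, the decarboxylases that make GABA from glutamate, were not among the listed genes. Between HF + LP and HF, 8 of these 11 had a positive and 3 a negative log2 fold change, with a median of 0.04 and a range of −0.16 to 0.23, and no member had an unadjusted p under 0.05. The list thus lay near the median of all genes in the comparison where Abat was −1.28. Aldh5a1, succinate semialdehyde dehydrogenase, which takes up the product of Abat, had a normalized count of 502 ± 39.6 in NP and 487 ± 72.4 in LP, and one of 392 ± 33.5 in HF and 460 ± 55.6 in HF + LP. Its log2 fold change in HF + LP compared to HF was 0.23 (SE 0.11), opposite in sign to that of Abat. Akr7a5, an aldehyde reductase that can turn the same semialdehyde into γ-hydroxybutyrate, was at 0.03 (SE 0.17).

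In HF compared to NP, 5 of the 11 GABA shunt genes had an unadjusted p under 0.05, all with negative log2 fold changes, and the list median was −0.20. Over all genes, 1830 (13.1%) had an unadjusted p under 0.05 in that comparison, 1106 of them with a negative value. Ogdh, a subunit of 2-oxoglutarate dehydrogenase, was at −0.50 (SE 0.10, adjusted p = 0.0196), and Aldh5a1 was at −0.36 (SE 0.11, adjusted p = 0.124). Got1 and Got2, the cytosolic and mitochondrial aspartate aminotransferases, were at −0.35 and −0.33. None of these passed the threshold with edgeR, and Ogdh did with DESeq2 (adjusted p = 0.000534). For Ogdh, every HF mouse (10050 to 12410) was below every NP mouse (14840 to 17720), as was the case for 503 of all genes tested (3.6%). The LP range (12110 to 16340) overlapped both, and the HF + LP range (10930 to 14620) overlapped that of HF. Between HF + LP and LP, none of the 11 had an unadjusted p under 0.05 and the list median was −0.07. Glud1, Glul, Dlst, Sdha, and Sdhb had log2 fold changes between −0.20 and 0.23 in all 4 pairwise comparisons.

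**Figure D3:**
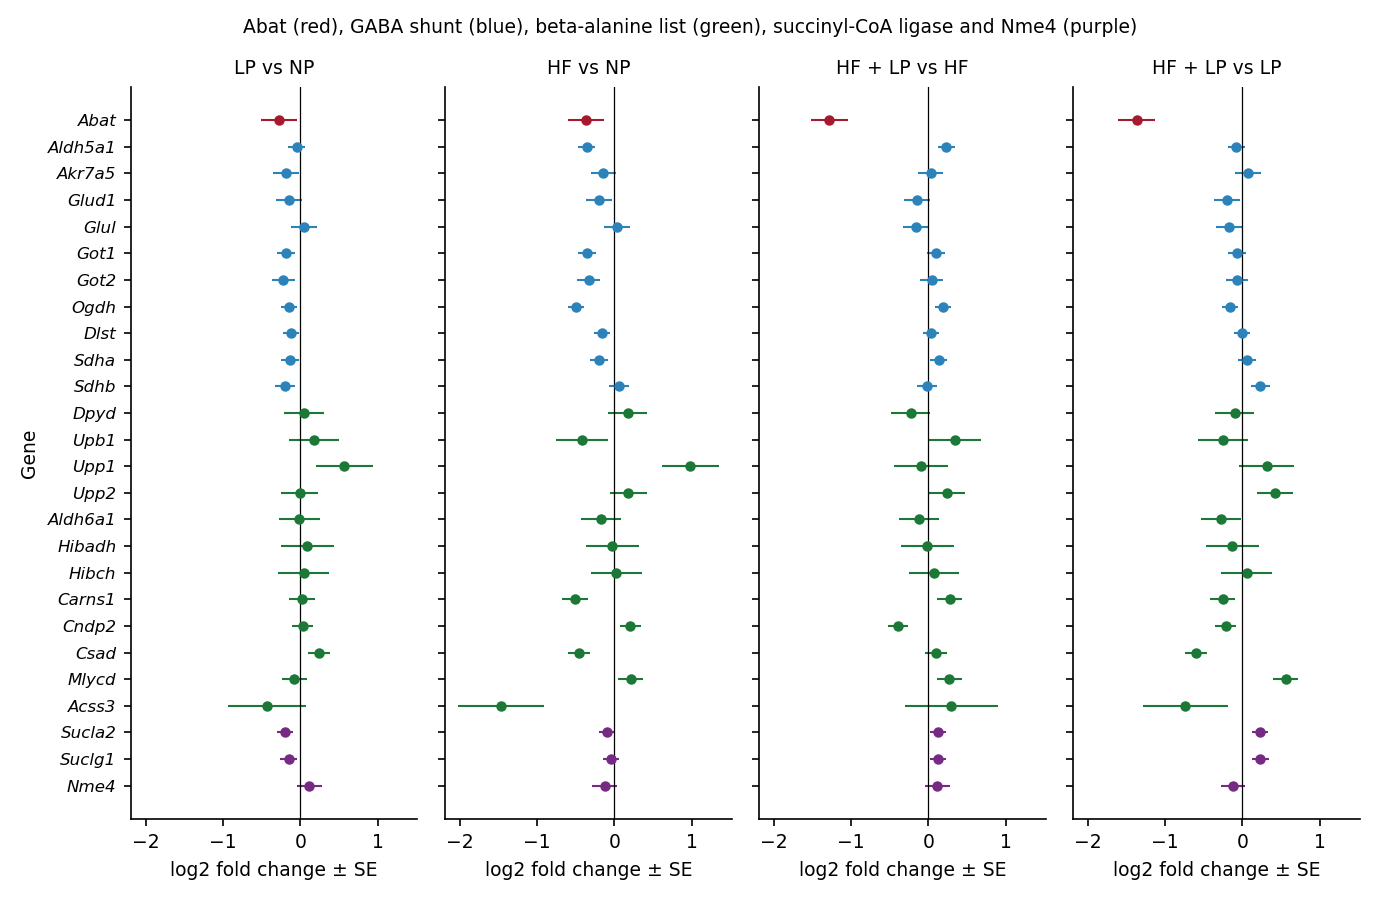
Log2 fold change ± SE from the edgeR model (x axis) for Abat, 10 of the 11 tested GABA shunt genes, 12 genes of the β-alanine list, and Sucla2, Suclg1, and Nme4 (y axis), in 4 comparisons of 5 mice against 5. Abat lies at −1.28 and −1.37 in the comparisons with HF + LP, left of the others, and among them at −0.28 and −0.37 in the comparisons with NP.

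In the list for β-alanine, pyrimidine, and valine semialdehyde breakdown, 12 of 16 genes were listed and tested. Dpys, Agxt2, Cndp1, and Gadl1 were not among the listed genes. Csad, cysteine sulfinate decarboxylase, which makes hypotaurine and can also form β-alanine, fell with high fat, with an average fat effect of −0.53 (SE 0.10, adjusted p = 0.00567). Hearts of HF mice had a normalized count of 278 ± 29.9 and those of HF + LP mice 297 ± 55.0, against 381 ± 33.4 in NP and 450 ± 101 in LP. Its log2 fold change in HF + LP compared to HF was 0.10 (SE 0.15), where that of Abat was −1.28. The call sat near the threshold: it was lost with the animal number as a replicate block (−0.32, adjusted p = 0.353), with the library number as a covariate (adjusted p = 0.0149), and without any 1 of 11 mice, namely NP 4, 5, 6, or 8, LP 15, HF 2, 4, or 5, or HF + LP 1, 2, or 4 (adjusted p 0.0102 to 0.0149).

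Cndp2, a dipeptidase that splits carnosine-like peptides, was at −0.40 (SE 0.13, adjusted p = 0.577) in HF + LP compared to HF, where no other member of the list had an unadjusted p under 0.05. In HF compared to NP, Carns1, which builds carnosine from β-alanine and histidine, was at −0.51 (SE 0.16, adjusted p = 0.136), and Upp1, a uridine phosphorylase, was at 0.98 (SE 0.36, adjusted p = 0.220). Acss3, a mitochondrial acyl-CoA synthetase with a base mean of 7.17, was at −1.46 (SE 0.56). Mlycd, malonyl-CoA decarboxylase, was at 0.56 (SE 0.16, adjusted p = 0.123) in HF + LP compared to LP. None of these 5 passed the threshold. Aldh6a1, which handles malonate and methylmalonate semialdehyde, the products of GABA transaminase on its other substrates, had group means of 914 to 1119 and a log2 fold change of −0.12 (SE 0.26) in HF + LP compared to HF. Hibadh and Hibch of valine breakdown were at −0.02 and 0.07. The pyrimidine genes Dpyd, Upb1, and Upp2 were at −0.23, 0.35, and 0.23, each close to its SE.

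Among the genes for mitochondrial nucleotide supply and mtDNA upkeep, 21 of 22 were tested. The proposed partners of GABA transaminase in nucleotide salvage had log2 fold changes of 0.12 (SE 0.10) for Sucla2, 0.12 (SE 0.11) for Suclg1, and 0.12 (SE 0.16) for Nme4 in HF + LP compared to HF. Between HF + LP and LP they were at 0.23, 0.23, and −0.12. None of the 3 was called, and of these 6 values only that of Nme4 in HF + LP compared to LP was negative, as both values of Abat were. Cmpk2, a mitochondrial nucleotide kinase that is also induced by interferon, had the largest difference of the list. Its normalized count was 213 ± 83.7 in HF, against 94.0 ± 42.2 in NP, 79.4 ± 12.9 in LP, and 109 ± 31.6 in HF + LP, with log2 fold changes of 1.19 (SE 0.29, adjusted p = 0.0410) in HF compared to NP and −0.98 (SE 0.29, adjusted p = 0.421) in HF + LP compared to HF. Twnk, the mtDNA helicase, was at 0.34 (SE 0.12, adjusted p = 0.681) and Samhd1, which breaks down deoxynucleotides, at −0.27 (SE 0.12, adjusted p = 0.912) in the latter. Tk2, mitochondrial thymidine kinase, was at 0.40 (SE 0.13, adjusted p = 0.492) in LP compared to NP. None of these passed the threshold with edgeR, and Cmpk2 did in HF compared to NP with DESeq2 (adjusted p = 0.00443).

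In the list of GABA transporters and receptors, 12 of 27 genes were listed and 9 were tested. The tested genes include Gabarap, Gabarapl1, and Gabarapl2, which are neither transporters nor receptors. The plasma membrane GABA transporters Slc6a11 and Slc6a12 and the vesicular transporter Slc32a1 were not among the listed genes. Gabbr1, a subunit of the metabotropic GABA receptor, had normalized counts of 175 ± 15.3 (NP), 183 ± 23.1 (LP), 144 ± 14.7 (HF), and 146 ± 23.9 (HF + LP), with an average fat effect of −0.31 (SE 0.09, adjusted p = 0.0450), which missed the threshold. In that effect, 3 of the 9 tested genes were higher and 4 lower at an unadjusted p under 0.05, beside 20.8% of all genes. Their list ran from −0.90 to 0.19, and none was called. In the list for GABA made from polyamines, all 15 listed genes were tested. Maoa, a monoamine oxidase, was at −0.59 (SE 0.25, adjusted p = 0.873) in HF + LP compared to HF, and Amd1, which feeds polyamine synthesis, was at 0.72 (SE 0.20, adjusted p = 0.104) in HF + LP compared to LP.

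GABA transaminase belongs to the aminotransferases that use pyridoxal phosphate, and 12 of the 18 genes on that list were tested. Their median log2 fold change in HF + LP compared to HF was −0.05, with a range of −0.41 to 0.29, and none had an unadjusted p under 0.05. Bcat2, which transaminates branched-chain amino acids, was at −0.51 (SE 0.17) and Kyat3, a kynurenine aminotransferase, at −0.47 (SE 0.16) in HF compared to NP, each with an adjusted p of 0.154. Their average fat effects were −0.48 (adjusted p = 0.0271) and −0.40 (adjusted p = 0.0408), short of the threshold with edgeR, and Bcat2 passed it with DESeq2 (adjusted p = 0.00968). Pdxk, pyridoxal kinase, which acts in the formation of pyridoxal phosphate, was at −0.06 (SE 0.19) in HF + LP compared to HF. Over all 6 lists, 46 genes had a positive and 34 a negative log2 fold change between HF + LP and HF, with a median of 0.03 beside 0.02 for all genes tested.

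The 6 genes taken as neighbours of Abat on chromosome 16 lay between −0.40 and 0.19 where Abat was at −1.28. They were not all close to Abat. Rbfox1 ends 1101903 bases and Eef2kmt 3257446 bases before Abat, whereas Mettl22 ends 22745 bases before it. Tmem186, Pmm2, and Carhsp1 begin 11661, 16106, and 37012 bases after Abat. Before Abat, the log2 fold changes in HF + LP compared to HF were 0.01 (SE 0.13) for Mettl22, 0.19 (SE 0.15) for Rbfox1, and 0.00 (SE 0.10) for Eef2kmt. After it, they were 0.12 for Tmem186, −0.06 for Pmm2, and −0.40 for Carhsp1 (SE 0.157, unadjusted p = 0.0194, adjusted p = 0.781 with edgeR). None of the 6 was called in this comparison, where edgeR called no gene at all (0%).

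Genes whose level followed Abat from mouse to mouse were ranked by Pearson's r between log2 CPM values after removal of each diet mean, over 20 libraries and 10157 genes with a base mean over 50. The points share the same libraries and scaling, and r is given as a description. The median r was −0.02, with 5% of genes below −0.45 and 5% above 0.36. The 10 genes most like Abat were Cnih4 (r = 0.77), Krt222 (0.73), Hlcs (0.70), Cul4b (0.69), Gpr153 (0.69), Cdc123 (0.69), Itgbl1 (0.69), Postn (0.69), Ddx19b (0.67), and Ptgir (0.67). The 5 least like it were Casc3 (r = −0.82), Foxo1 (−0.80), Puf60 (−0.77), Adra1b (−0.75), and Lgals4 (−0.74). Negative values reached further than positive ones, with 10 genes under −0.7 and 3 over 0.7.

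Much of this likeness rested on HF + LP mice 4 and 5, which had the lowest Abat. Without them, r was 0.39 for Cnih4, 0.23 for Cdc123, and 0.06 for Ddx19b, and it was 0.67 for Krt222 and 0.61 for Hlcs. On the negative side it was −0.56 for Casc3, −0.57 for Foxo1, and −0.22 for Adra1b. The r of Ddx19b, Cdc123, and Adra1b thus fell furthest among these genes without the 2 mice, and that of Krt222 and Hlcs least.

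Casc3, a core protein of the exon junction complex, was at 304, 318, and 306 in HF + LP mice 1 to 3 and at 437 and 417 in mice 4 and 5. Cnih4, a protein of early secretory transport, was at 1090, 875, and 1084 in mice 1 to 3 and at 706 and 722 in mice 4 and 5. Foxo1, a transcription factor restrained by insulin signalling, was at 543, 591, and 545 and at 665 and 659. Adra1b, the α1B adrenergic receptor, was at 1217, 1532, and 1194 and at 2371 and 2469. Mice 4 and 5 were thus the extremes of their group for all 4 genes. In the other diets the spread of Abat relative to its mean was smaller. In LP, mouse 20 had the lowest Abat and the highest Casc3 (405), and mouse 13 had the highest Abat and the lowest Casc3 (366). Hlcs, which attaches biotin to carboxylases, was highest in the mouse with the most Abat in NP (66.9, mouse 5), LP (109, mouse 13), and HF + LP (62.8, mouse 3). In HF it was highest in mouse 5 (62.9) and at 49.6 in mouse 1, which had the most Abat.

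**Figure D4:**
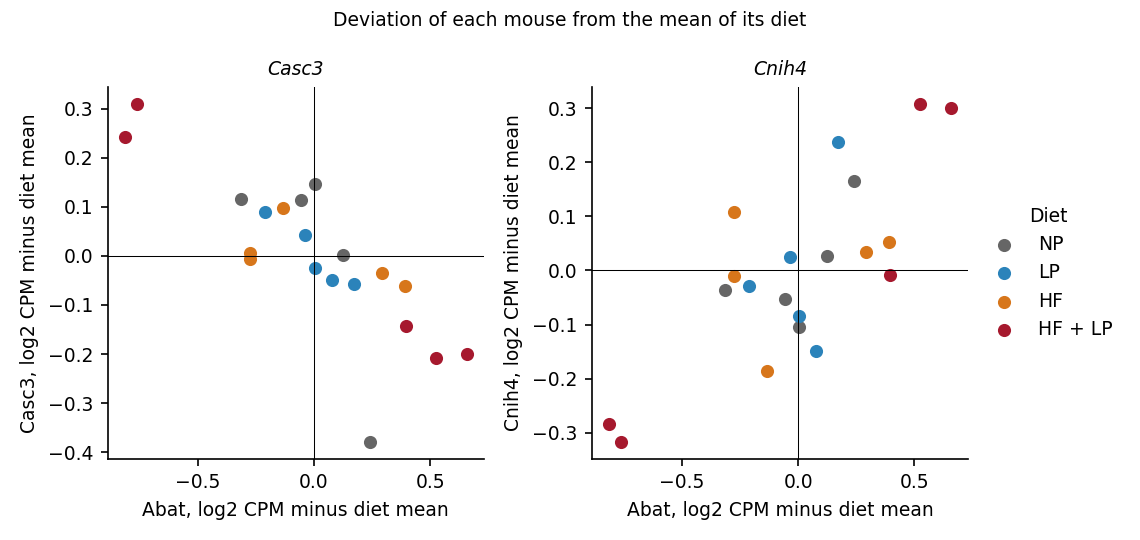
Deviation of each mouse from its diet mean in log2 CPM, for Abat (x axes) against Casc3 (left y axis, r = −0.82) and Cnih4 (right y axis, r = 0.77), 20 mice coloured by diet. HF + LP mice 4 and 5 lie at the far left of both panels and the other 3 HF + LP mice on the right.

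None of the 10 most like genes was called in any comparison. Over all genes tested, edgeR called at most 140 (1%) in any comparison. Cul4b, a scaffold of ubiquitin ligases, had group means of 81.3 to 85.3, highest in NP and lowest in HF + LP as for Abat but within a narrow range. Postn, periostin, a matrix protein of activated fibroblasts, was highest in HF (344) and lower in LP (250), NP (240), and HF + LP (185). Its log2 fold change was −0.89 (SE 0.21, adjusted p = 0.217) in HF + LP compared to HF, negative as for Abat. In HF compared to NP it was 0.52 (SE 0.20, adjusted p = 0.250), where that of Abat was negative. Of the fixed lists, the median r with Abat was −0.17 for the 11 GABA shunt genes and −0.16 for 8 genes of the β-alanine list. It was −0.04 for 19 nucleotide supply genes, −0.06 for 13 polyamine genes, and −0.06 for 11 aminotransferase genes. For 7 genes of the transport and receptor list, Gabarap, Gabarapl1, and Gabarapl2 among them, it was 0.05. Aldh5a1 was at −0.53 and Sdha, a succinate dehydrogenase subunit, at −0.55. At the ends of the lists were Gpt2, mitochondrial alanine aminotransferase (−0.73), Gabbr1 (−0.68), and Twnk (−0.63) on the negative side, and Rrm2b, a ribonucleotide reductase subunit (0.47), on the positive side. No GABA shunt gene had an r with Abat over 0.19.

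Markers of other cells that ventricular tissue can hold are given beside the Abat values. From HF to HF + LP, all 7 fibroblast markers had negative log2 fold changes (median −0.29, 2 with an unadjusted p under 0.05), as did all 8 macrophage markers (median −0.35, 1 with an unadjusted p under 0.05). Over all genes, 4.84% had an unadjusted p under 0.05 in this comparison. None of these markers was called, where edgeR called no gene at all. Summed CPM of fibroblast markers ranged over 920 to 1125 (NP), 828 to 1506 (LP), 1097 to 1457 (HF), and 796 to 1178 (HF + LP). For macrophage markers it was 301 to 432, 267 to 668, 440 to 590, and 280 to 426 in the same order. The macrophage sum of every HF + LP mouse was below that of every HF mouse, as for Abat, and in HF + LP both sums overlapped those of NP, unlike Abat. Within diets, the median r with Abat was 0.19 for fibroblast markers (−0.00 to 0.56, highest for Col1a2), −0.12 for macrophage markers (−0.38 to 0.55, highest for Mrc1), and −0.23 for cardiomyocyte markers (−0.35 to −0.08).

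Of the 7 mural markers, Myh11, the smooth muscle myosin heavy chain, fell with high fat, with an average fat effect of −1.54 (SE 0.23, adjusted p = 0.000572). Its normalized count was 204 to 494 in NP, 221 to 986 in LP, 114 to 158 in HF, and 108 to 173 in HF + LP, so it was low on both high-fat diets. The mural list had 5 negative and 2 positive values in the average fat effect (median −0.24). In HF + LP compared to HF its median was 0.05 (−0.33 to 0.96), with 2 genes higher at an unadjusted p under 0.05, beside 4.84% of all genes. In HF + LP compared to LP the median was −0.11, with 2 genes lower at that p, beside 15.9% of all genes. None was called in either. Of the 8 cardiomyocyte markers, Myh6, the adult cardiac myosin heavy chain, fell with high fat (−0.55, SE 0.09, adjusted p = 0.00252), whereas the list as a whole was mixed in the average fat effect (3 positive, 5 negative, median −0.04). The list medians were 0.16 in HF + LP compared to HF and 0.14 in HF + LP compared to LP. Of 8 Schwann cell and neuron markers, 4 were tested, and all 4 were lower in HF + LP than in LP (median −0.85, 2 with an unadjusted p under 0.05, none called), with 2 of 4 lower than in HF (median −0.11). Endothelial markers had medians of −0.04 and −0.00 and erythroid markers of 0.24 and 0.25, with none called.

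Adipocyte markers were lower in HF + LP than in LP in 8 of 8 cases (median −4.69, 7 with an unadjusted p under 0.05 beside 15.9% of all genes, none called) and than in HF in 7 of 8 (median −1.88). In the fit they were higher in LP than in NP in 8 of 8 (median 2.10), although the median CPM in LP was above that in NP for only 3 of the 8, and they were lower in HF than in NP in 6 of 8 (median −0.22, none with an unadjusted p under 0.05). These markers were uneven within LP, with normalized counts of Adipoq of 1208 in mouse 13 and 481 in mouse 20 against 10.6 to 31.5 in the other 3. Without mouse 13 the list median was −3.49 in HF + LP compared to LP and 1.09 in LP compared to NP. Median CPM of the defining marker Adipoq was 2.25 (NP), 1.80 (LP), 0.40 (HF), and 0.20 (HF + LP), and Lep was at 0 in 8 of the 20 libraries. Summed CPM of the list, most of it Fabp4, which other cells also express, was 466 to 927, 519 to 2224, 373 to 1259, and 334 to 1094. Median CPM of Fabp4 was 529 (NP), 625 (LP), 879 (HF), and 834 (HF + LP), in another order than that of Adipoq. Within diets, the median r of adipocyte markers with Abat was −0.04. Both tested brown adipocyte markers, Ucp1 and Cidea, were lower in HF + LP than in LP (median −2.71, 1 with an unadjusted p under 0.05, none called) and than in HF (median −0.75). Their list had summed CPM of 29.7 to 48.2 in NP, 38.0 to 617 in LP, 53.0 to 105 in HF, and 38.8 to 61.1 in HF + LP, and Ucp1 was highest in LP mouse 13. Atrial markers were lower in HF + LP than in HF in 4 of 4 cases (median −1.36) and than in LP in 4 of 4 (median −1.48), none of them called, with a median within-diet r of 0.05. The liver and the kidney, where Abat is known to be expressed, left little trace: 3 of 8 hepatocyte markers were listed, with summed CPM of 0.43 to 2.59, and 1 of 5 kidney tubule markers was, with CPM of 0.08 to 2.70. The part of these cell types in the Abat values was not tested further.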

How the data were processed

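Left ventricular RNA of 20 mice was sequenced from QuantSeq 3′ libraries in 75 bp fragments. The authors aligned reads with BlueBee software and deposited raw counts per Ensembl gene and mouse, without normalization, on GRCm38 and with DESeq2 1.22.2 among the tools that the submitters' processing notes name; the counting program and strand setting are not given in the sources used here. The deposited counts cover genes with at least 60 counts in all. Symbols were found for 15917 genes, and coordinates are from GENCODE M21. The analysis used edgeR 4.0.16 under R 4.3.3 (filterByExpr, TMM, quasi-likelihood model of all 4 groups, Benjamini-Hochberg adjustment), tested on simulated data first. SEs of log2 fold changes came from the F statistic, and log2 CPM used a prior count of 2. Named genes were Abat, the GABA shunt and β-alanine lists, Sucla2, Suclg1, Nme4, called or top-ranked members of other lists, the 10 most and 5 least like genes, and 3 neighbours a side; a few list members are not reported here. The gene, the lists, and the tests were chosen with earlier results of these data known. Alternatives were DESeq2 1.42.0, other scalings, filters, thresholds, a covariate, a block, and leaving out mice.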

Additional observations from a re-analysis of the deposited data

How the results depend on the processing

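The log2 fold change of Abat was negative in each comparison under every alternative run. Over these it was −1.46 to −1.11 in HF + LP compared to HF, −1.55 to −1.20 in HF + LP compared to LP, −0.48 to −0.22 in LP compared to NP, −0.62 to −0.30 in HF compared to NP, and −1.18 to −0.83 for the interaction. Of the fixed lists, the number called in HF compared to NP was 0, and 2 with DESeq2 or an adjusted p under 0.05. In the average fat effect it was 1, and 4 with DESeq2, 2 with at least 10 counts in every library, 6 with an adjusted p under 0.05, 0 with the library number as a covariate, and 0 to 2 with a mouse left out. Csad was the call lost, and without NP mouse 5 Cmpk2 took its place (adjusted p = 0.00761). With the animal number as a replicate block, Abat was at −0.48 in LP compared to NP and −0.62 in HF compared to NP, further from 0 than without it and in the latter by more than the SE of 0.23, no list gene was called (0), and Csad was at −0.32 (adjusted p = 0.353). The deviations of same-numbered mice of different groups from their group means had r from −0.55 to 0.48. Mice of unlike number were not compared in this way, so these values cannot decide whether the numbers pair samples. Over all genes, calls in HF compared to NP were 37, against 159 with DESeq2, 2 with the replicate block, 61 with only the groups compared, and 157 at an adjusted p under 0.05. In HF + LP compared to LP they were 14, against 84, 0, 0, and 45, and 5 with the library number. In the average fat effect they were 140, against 398 with DESeq2, 13 with the block, and 502 at 0.05. With a mouse left out, calls in HF compared to NP were 20 to 69, and moved by over 1.5 times without NP 5 (23), 6 (20), or 8 (22), HF 4 (20) or 5 (24), and LP 13 (69). In HF + LP compared to LP they were 1 to 15, with 1 without HF + LP 2 or 4, 2 without LP 15, and 10 to 15 without NP 4, LP 5, HF 2, or HF + LP 3 or 5, and 3 to 8 without any of the other mice. In the average fat effect they were 79 to 198, lowest without HF 4 (79), LP 15 (85), and NP 8 (88). In HF + LP compared to HF, 1 gene was called without HF 1. Of the 10 genes most like Abat, 7 to 10 stayed among the top 50, with the fewest (7) without HF + LP mouse 5 and 8 without mouse 4. The causes of these shifts were not tested. The lowest HF + LP values rest on counts of 23 and 24.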
